A study of Rattus norvegicus with 22 samples.

Results

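The genes described here are 9 direct transcriptional targets of p53 in the rat tongue: Mdm2, Cdkn1a, Bax, Bbc3, Gadd45a, Sesn1, Ccng1, Phlda3 and Tp53inp1. A probe was taken where its symbol on the array equals one of these names, and where a gene has more than 1 probe the brightest over the 22 arrays stands for it. All 9 genes were found among the 19167 symbols of the array, and 11 of its 30367 probes carry their names, because Mdm2 and Cdkn1a have 2 probes each.

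OSCC (oral squamous cell carcinoma) and adjacent phenotypically normal tongue tissue were compared in 11 pairs, each from 1 male F344 rat, an inbred strain. By the treatment and tissue protocols, the rats first drank 4-NQO (4-nitroquinoline 1-oxide, a carcinogen that forms DNA adducts) at 7 to 9 weeks of age, at 20 ppm for 10 weeks, and the tissues were taken 23 to 26 weeks after that first exposure, at an age of about 33 weeks. The normal group is therefore carcinogen-exposed tissue of the same tongues, although the titles of all 22 arrays carry the word untreated and the labels of the normal pieces give no treatment. Tissue of rats that never received 4-NQO was not analysed here. Both groups are whole pieces of tissue, frozen and extracted without a step that separates cell types.

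p53 is a transcription factor that is stabilised after DNA damage and that binds pairs of a short repeat near its target genes. Its targets divide into a negative feedback arm, inhibitors of the cell cycle, inducers of apoptosis and genes of stress defence. Carcinogens such as 4-NQO damage DNA. The arrays measured RNA and hold no information on p53 protein or mutation.

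A level below is the log2 processed signal of a probe relative to the 75th percentile of its array, so that 0 equals that percentile. A difference is the mean of the 11 within-rat log2 differences, OSCC minus normal, with its standard error (SE) from limma. A gene rose or fell where its p, adjusted by the Benjamini-Hochberg method over all 30367 probes, was below 0.05, and the 2-fold limit of the study's methods is added as a second criterion. This test was passed by 44.0% of all probes, 16.2% higher and 27.9% lower in OSCC, so that a call is common on these arrays. Of the probes that passed, 36.7% were higher in OSCC, a share of 19.5% with arrays scaled to their median and of 50.5% with the percentile taken over detected probes. With 2-fold as well the test was passed by 13.8% of probes (6.86% higher, 6.97% lower), and the levels of the tissues were fully separated in 1.65%. The median difference of all probes was -0.24, and it depended on the scaling, from -0.44 with arrays scaled to their median to -0.03 after quantile normalization.

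The 75th percentile of the signal was 236.8 to 654.9 units on normal arrays and 338.7 to 1414 on OSCC arrays. All 9 markers of stratified squamous epithelium were measured in both tissues, and 1 of them rose and 0 fell. Of 10 skeletal muscle markers 7 fell and 1 rose. The pairs of animals 21, 22 and 24 stood apart: the correlation of their differences over all probes with the mean of the other pairs was 0.21 to 0.47, as it was for animal 17 (0.47), against 0.76 to 0.84 in the rest. The study itself names animals 21, 22 and 24, and not animal 17, as examples of variable expression. Normal tissue occupied 3 slides and OSCC 4 different ones. Scanning took 2 days, the first for normal tissue and for the OSCC of animals 4 and 9, the second for the OSCC of the other 9 rats.

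Of the 9 targets 2 rose in OSCC (Bbc3 and Tp53inp1), 3 fell (Cdkn1a, Sesn1 and Ccng1) and 4 did not pass the test (Mdm2, Bax, Gadd45a and Phlda3). Of 19167 symbols, each with its brightest probe, 17.0% rose and 27.9% fell, and the share of the 9 that passed (55.6%) compares with 45.0% of symbols. None of the 9 reached a mean change of 2-fold, with limma or with the methods' paired t-test, whereas 14.7% of symbols passed with that size of change (7.48% higher, 7.24% lower). The median difference of the 9 was -0.22, near that of all symbols (-0.21). In no member were the levels of OSCC and normal tissue fully separated, which was the case for 1.66% of symbols.

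**Figure D1:**
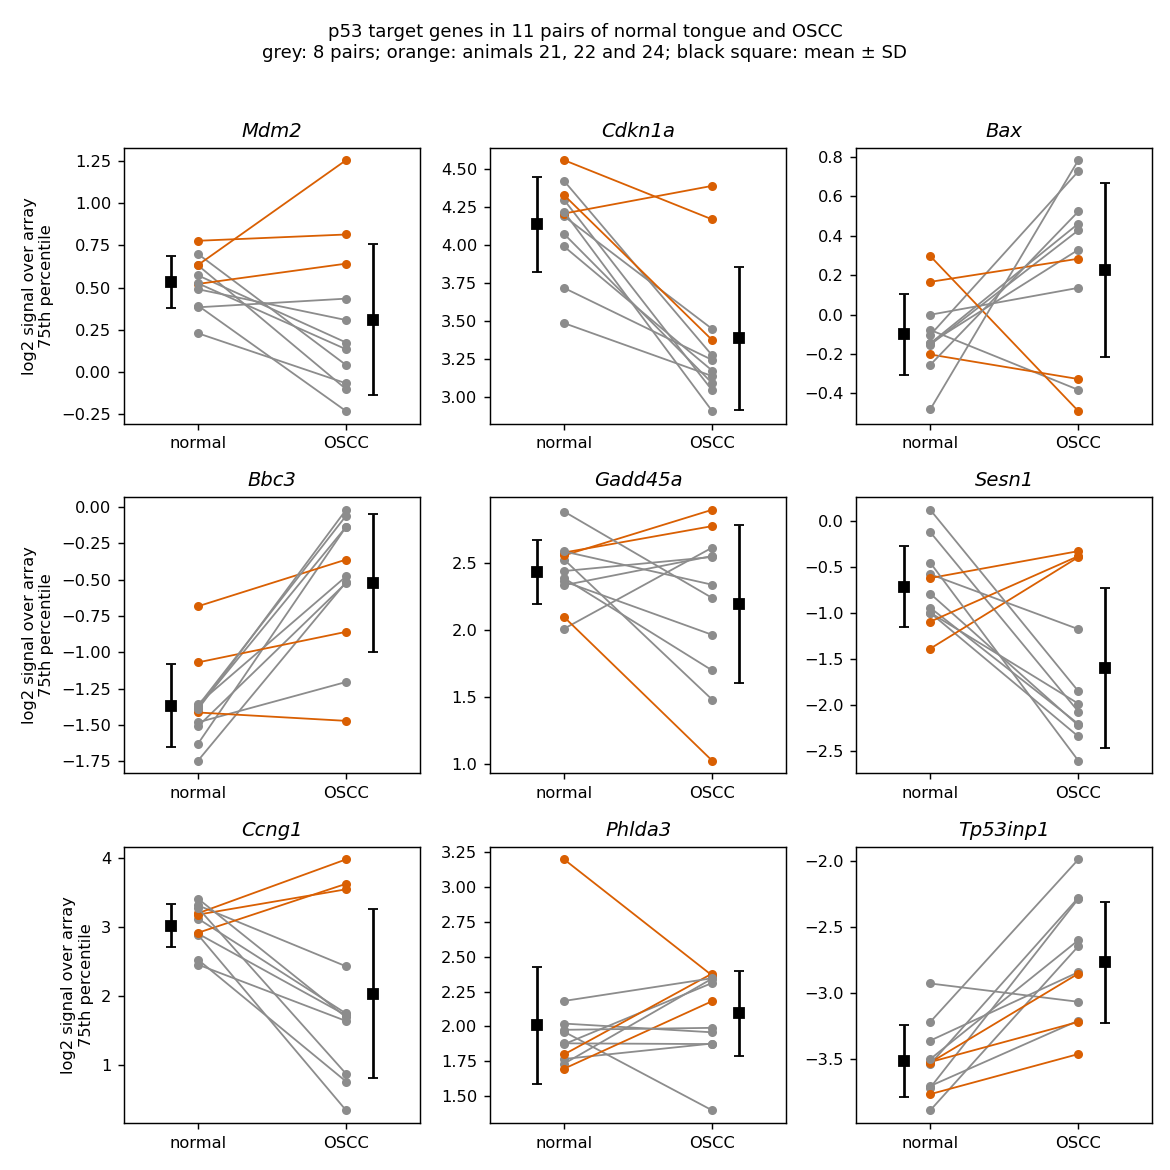
Levels of the 9 genes (brightest probe) in normal tongue and OSCC, as log2 signal over the 75th percentile of the array; each line joins the tissues of 1 animal, orange lines are animals 21, 22 and 24, and black squares are the mean ± SD of 11 arrays. Bbc3 and Tp53inp1 were higher in OSCC in 10 of 11 pairs, Cdkn1a was lower in 10, and Ccng1 and Sesn1 were lower in all 8 grey pairs and higher in the orange ones.

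For a view of the DNA these genes carry, the 250 bases before the transcription start were searched for the p53 decamer, the 10-base repeat of which the p53 response element holds a pair. RefSeq start sites on assembly GRCr8 were at hand for 6 of the 9 genes, not for Bax, Bbc3 and Tp53inp1. A decamer lay in 4 of the 6, against 6.64% of 33469 promoters, and it reads the same on both strands. A pair of decamers within 13 bases of each other lay in 0.0388% of promoters and in none of the 6. The search allowed no mismatch, so that an imperfect pair was not counted. The 10 bases that directly follow the Cdkn1a decamer match the repeat at all but their first base. The windows are printed to show the motif in the 4 genes that hold it, with the decamer in capitals and up to 20 bases on each side, 5′ to 3′ on the strand of the gene:
Cdkn1a: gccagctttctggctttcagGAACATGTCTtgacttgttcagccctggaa
Sesn1: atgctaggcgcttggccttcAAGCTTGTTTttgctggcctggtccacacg
Ccng1: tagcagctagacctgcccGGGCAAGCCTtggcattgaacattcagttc
Gadd45a: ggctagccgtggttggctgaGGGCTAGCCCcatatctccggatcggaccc

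On GRCr8 the Cdkn1a window is chr20:7150711-7150760 on the + strand, and its decamer begins 201 bases before the start. The Sesn1 window is chr20:46948527-46948576 on the + strand, with the decamer 172 bases before the start. The Ccng1 window is chr10:25685079-25685126 on the - strand, with the decamer 232 bases before the start, and the Gadd45a window is chr4:97486818-97486867 on the - strand, with the decamer 48 bases before it. Both members that rose were among those not searched, so that the motif cannot be set against the direction of change. Mdm2 and Phlda3 hold none in this window. The best-studied p53 sites of Mdm2 and Gadd45a lie inside introns, which were not searched, and a match of letters does not show binding.

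The feedback arm was represented by Mdm2, the ubiquitin ligase that marks p53 for degradation and is itself induced by p53. Its brightest probe had a level of 0.23 to 0.78 in normal tissue (median 0.53) and of -0.23 to 1.25 in OSCC (median 0.18). OSCC of animal 24 was the highest of all 22 arrays, 6 OSCC arrays lay below every normal array, and 2 lay above them all. The difference was -0.22 (SE 0.13, adjusted p = 0.183), lower in 7 of 11 pairs. It passed the test as a fall without animal 24 (-0.31, adjusted p = 0.0452), without animals 21, 22 and 24 together (-0.40, adjusted p = 0.0144) and with arrays scaled to their median (-0.42, adjusted p = 0.0182). Of all probes 53.9%, 64.7% and 56.8% passed under these settings, against 44.0%. The pair of animal 24 had the highest difference of Mdm2 (0.62), so that leaving it out lowers the mean.

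The second probe of Mdm2 went the other way. It had a level of -1.03 to -0.12 in normal tissue (median -0.53) and of -0.53 to 0.56 in OSCC (median 0.08), and 9 of the 11 OSCC arrays lay above every normal array. This probe rose by 0.61 (SE 0.16, adjusted p = 0.0102), 1.53-fold, and was higher in 10 of 11 pairs. The exception was animal 17. The difference stayed positive under all 22 other settings, from 0.39 to 0.71, and passed under 20 of them; the exceptions were normexp background correction (adjusted p = 0.0683) and scan day as a term (adjusted p = 0.319).

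The arrest arm was represented by Cdkn1a, which encodes p21, the inhibitor of cyclin-dependent kinases that holds cells before S phase. The brightest Cdkn1a probe had a level of 3.49 to 4.56 in normal tissue (median 4.21) and of 2.91 to 4.39 in OSCC (median 3.25). In OSCC 9 of 11 arrays lay below every normal array, and those of animals 22 and 24 were the exceptions. The gene fell by 0.75 on the log2 scale by this probe (SE 0.15, adjusted p = 0.00219), 1.68-fold, in 10 of 11 pairs.

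The second Cdkn1a probe also passed the test, with the opposite sign. Its level was 1.96 to 2.39 in normal tissue (median 2.18) and 2.14 to 3.60 in OSCC (median 2.60), and 7 OSCC arrays lay above every normal array. By this probe the gene rose by 0.48 (SE 0.14, adjusted p = 0.0198), 1.39-fold, in 10 of 11 pairs. The difference was positive under all 22 other settings and passed under 18. It did not pass with arrays scaled to their median (0.28, adjusted p = 0.148), with scan day as a term (adjusted p = 0.217), in the pairs scanned on different days alone (adjusted p = 0.0652) or with slide as a random block (adjusted p = 0.0625). With the mean of both probes Cdkn1a gave -0.14 (adjusted p = 0.358), so that neither direction can be read for the gene as a whole.

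The probes of these genes are 60-base oligonucleotides with the sequence of the transcript. They are shown because the direction of Mdm2 and Cdkn1a turned on which of them was read; the second Mdm2 probe is given in full and the others by their first 30 bases:
Mdm2 brightest: atggagtaaccaaaggatagttctgtattg
Mdm2 second: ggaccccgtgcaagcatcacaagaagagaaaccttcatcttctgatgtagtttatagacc
Cdkn1a brightest: ccctgtttctgtaacaccctgagctggact
Cdkn1a second: aatttaaacttctcctgtatatactctgcc

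On rat assembly rn4, as the array annotation gives it, the brightest Mdm2 probe lies at chr7:56996880-56996939 and the second at chr7:57005501-57005835, both on the - strand. The second spans 335 bases of the genome with 60 bases of sequence and so crosses at least 1 exon junction. The brightest Cdkn1a probe lies at chr20:7386596-7386655 and the second at chr20:7385536-7385595, on the + strand. In both genes the brightest probe is the one nearer the 3′ end, by 8758.5 bases of the genome in Mdm2 and 1060 in Cdkn1a between probe centres. Exon and intron annotation of rn4 was not used here.

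Within each rat the difference by the 5′ probe was subtracted from that by the 3′ probe. Scaling an array by a constant factor cannot change this quantity, though quantile normalization and background correction can. The 3′ probe gave the lower value in 11 of 11 pairs for both genes. The mean of this quantity was -0.84 ± 0.32 in Mdm2 and -1.23 ± 0.58 in Cdkn1a (log2, SD, n = 11, two-sided exact sign-flip p = 0.000977 for each, the smallest that 11 pairs allow). This p is against a value of 0 and not against other genes, and the second probes were read after the data were seen. The difference of Mdm2 had opposite signs by its probes in 6 pairs, and that of Cdkn1a in 9. The differences by the 2 Mdm2 probes nevertheless went together over the 11 pairs (Pearson's r = 0.78, a description of 2 probes on shared arrays). Animal 24 had the highest difference by both. For the Cdkn1a probes r was 0.16.

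**Figure D2:**
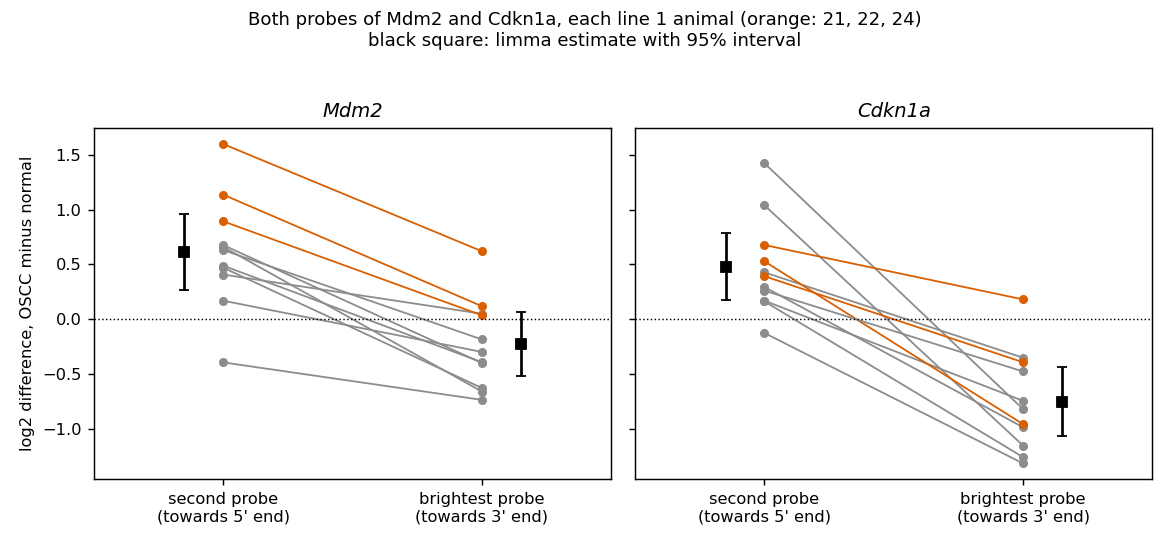
Difference of OSCC minus normal tissue (log2) by the second and the brightest probe of Mdm2 and Cdkn1a; each line is 1 animal, orange for animals 21, 22 and 24, and black squares are limma estimates with 95% intervals. Every line falls from the 5′ to the 3′ probe, and the intervals of the Cdkn1a probes lie on opposite sides of 0.

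Probe disagreement of this kind was uncommon but not restricted to these genes. Of 1770 genes with at least 2 mapped probes well above background on 11 or more arrays, both outer probes passed in 575, and in 39 of these (6.78%) with opposite signs. The 3′ probe was the lower one in 35 of the 39. The median of the 3′ minus the 5′ difference over the 1770 genes was -0.24, and 2.71% of them had a value as low as that of Cdkn1a and 10.5% as low as that of Mdm2. Whether transcript ends, RNA quality or labelling differed between the tissues was not tested.

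The apoptotic arm was represented by Bbc3 and Bax. Bbc3 encodes Puma, a BH3-only protein that frees Bax to act, and Bax is the pore-forming protein of the mitochondrial outer membrane. The level of Bbc3 was -1.75 to -0.68 in normal tissue (median -1.39) and -1.47 to -0.02 in OSCC (median -0.48). In OSCC 8 arrays lay above every normal array, and the lowest was that of animal 22. Bbc3 rose by 0.84 (SE 0.17, adjusted p = 0.00256), 1.79-fold, in 10 of 11 pairs.

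The rise of Bbc3 was unequal among animals. In the pairs of animals 21, 22 and 24 the difference was -0.06 to 0.32, and in the other 8 pairs it was 0.28 to 1.49. Markers of infiltrating cell types rose in the same tissues. Of 9 macrophage markers 7 rose (summed level 13.0 to 29.7 in normal tissue and 15.8 to 52.5 in OSCC, on a linear scale where 1 is the 75th percentile), with Marco at background throughout. The macrophage sum was higher in OSCC in 10 pairs, the exception being animal 17, whereas that of Bbc3 was animal 22. Of 7 T cell markers 5 rose, and their sum, 0.737 to 2.65 in normal tissue and 1.19 to 6.03 in OSCC, was lower in OSCC in animals 22 and 24 and higher in the other 9. The part of these cells in the result was not tested, and in whole tissue more cells of a type and more RNA per cell cannot be told apart.

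Bax had a level of -0.48 to 0.30 in normal tissue (median -0.14) and of -0.49 to 0.78 in OSCC (median 0.33). In OSCC 6 arrays lay above every normal array and that of animal 24 lay below them all. The difference was 0.33 (SE 0.18, adjusted p = 0.141, 95% interval -0.06 to 0.71), higher in 8 of 11 pairs. It passed as a rise without animal 24 (0.44, adjusted p = 0.0353) and without animals 21, 22 and 24 together (0.55, adjusted p = 0.0169). The pair of animal 24 had the lowest difference of Bax (-0.79), so that leaving it out raises the mean. Of all probes 53.9% passed without animal 24 and 64.7% without animals 21, 22 and 24, against 44.0% with all pairs. The array annotation gives the probes of Bax and Bbc3 no genome position.

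Tp53inp1 encodes a stress-induced cofactor of p53 that also takes part in autophagy. Its probe on chr5 was dim, detected over background on 8 arrays of normal tissue and 11 of OSCC. The level was -3.89 to -2.93 in normal tissue (median -3.53) and -3.46 to -1.99 in OSCC (median -2.84), and 7 OSCC arrays lay above every normal array. Tp53inp1 rose by 0.75 (SE 0.16, adjusted p = 0.0033), 1.68-fold, in 10 of 11 pairs, the exception being animal 16. After normexp background correction the difference was 0.32 and did not pass (adjusted p = 0.658), so that its size depends on how the background of a dim probe is removed.

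Sesn1 and Ccng1 fell together and in the same animals. Sesn1 encodes sestrin 1, a stress protein that restrains mTORC1 and oxidative damage, and Ccng1 encodes cyclin G1, a binding partner of protein phosphatase 2A that acts back on the p53 and Mdm2 loop. Sesn1 had a level of -1.39 to 0.12 in normal tissue (median -0.79) and of -2.61 to -0.33 in OSCC (median -1.99). In OSCC 7 arrays lay below every normal array, and those of animals 21, 22 and 24, at -0.39 to -0.33, lay within the normal range. Sesn1 fell by 0.88 on the log2 scale (SE 0.31, adjusted p = 0.0358), 1.85-fold, in 8 of 11 pairs.

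The level of Ccng1 was 2.45 to 3.41 in normal tissue (median 3.12) and 0.34 to 3.97 in OSCC (median 1.72). In OSCC the arrays of animals 21, 22 and 24 lay above every normal array and the other 8 lay below them all. Ccng1 fell by 0.99 on the log2 scale (SE 0.32, adjusted p = 0.0297), 1.98-fold, in 8 of 11 pairs. In the 3 pairs of animals 21, 22 and 24 its difference was 0.37 to 0.78, and in the other 8 it was -2.54 to -0.82.

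These pairs were also split by skeletal muscle. The summed level of 10 muscle markers was 1220 to 2467 in normal tissue and 79.1 to 2981 in OSCC, and all 10 were well above background on at least 1 array. The log2 ratio of the sums, OSCC over normal, was 0.14 to 0.84 in animals 21, 22 and 24 and -4.32 to -1.23 in the other 8, so that it had the sign of Ccng1 and of Sesn1 in 11 of 11 pairs. By the brightest probes it had the sign of Mdm2 in 10 pairs and of Cdkn1a in 9, and by the second probes in 4 pairs for each. It had the sign of Bbc3 in 2. Other marker sums followed this split as well. The sum of endothelium had the sign of Ccng1 and of Sesn1 in 9 pairs, and those of T cells and of proliferation in 1 pair each. The remaining lists had it in 2 to 7 pairs. Ckm, the muscle creatine kinase, fell by 2.19 on the log2 scale (adjusted p = 0.0127) and Myh4, a fast myosin heavy chain, fell by 4.47 (adjusted p = 0.00359), while Myh2, another fast myosin heavy chain, rose by 2.17 (adjusted p = 0.0327). The part of muscle tissue, of other cell types and of proliferation in the fall of the members was not tested.

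The adjusted p-values of Sesn1 and Ccng1 lay close to the threshold. Without any one of animals 4, 9, 11, 13, 16, 25 or 26, neither passed (adjusted p at most 0.0798 for Sesn1 and 0.0667 for Ccng1), although the difference remained between -1.07 and -0.76 for Sesn1 and between -1.16 and -0.83 for Ccng1 with any 1 animal left out. Without animals 21, 22 and 24 together the differences were -1.47 and -1.59. Both genes were higher in OSCC in these 3 pairs and lower in the other 8, so that leaving the 3 out lowers the mean.

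**Figure D3:**
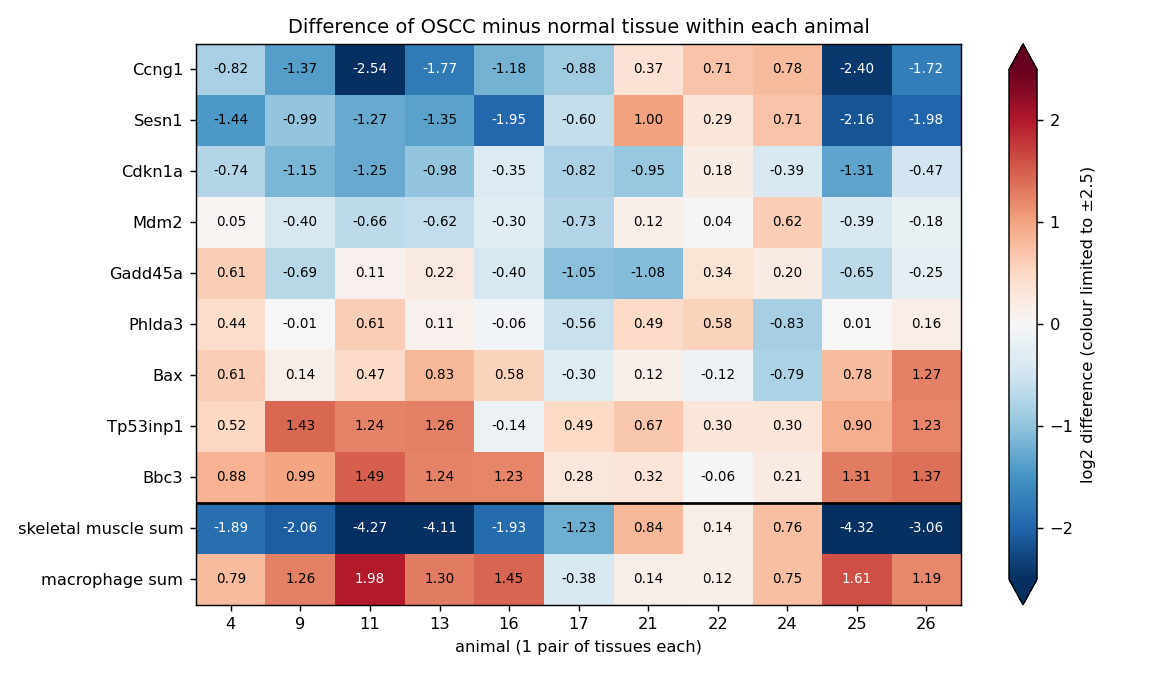
Difference of OSCC minus normal tissue (log2) in each of 11 animals for the 9 genes and, below the line, the log2 ratio of the summed levels of 10 skeletal muscle and 9 macrophage markers; blue is lower and red higher in OSCC. In animals 21, 22 and 24 the muscle sum, Ccng1 and Sesn1 were all higher in OSCC, and in the other 8 all were lower.

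Gadd45a, a stress sensor that binds PCNA and p21, did not pass. It had a level of 2.01 to 2.89 in normal tissue (median 2.44) and of 1.02 to 2.90 in OSCC (median 2.34), and 4 OSCC arrays lay below every normal array, the lowest being animal 21. The difference was -0.24 (SE 0.17, adjusted p = 0.262, 95% interval -0.62 to 0.14), lower in 6 of 11 pairs. Phlda3, a pleckstrin-homology protein that competes with Akt at the membrane, had a level of 1.70 to 3.20 in normal tissue (median 1.88) and of 1.40 to 2.38 in OSCC (median 2.18). Its normal sample of animal 24 was the highest of all 22 arrays. The difference was 0.09 (SE 0.15, adjusted p = 0.641, 95% interval -0.23 to 0.40), and its sign turned with arrays scaled to their median (-0.12).

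The scan day bears on all of these calls. In both pairs that were scanned within 1 day, all 5 members that passed changed in the direction of the mean. In animals 4 and 9 the difference was -0.74 and -1.15 for Cdkn1a, -1.44 and -0.99 for Sesn1 and -0.82 and -1.37 for Ccng1. It was 0.88 and 0.99 for Bbc3 and 0.52 and 1.43 for Tp53inp1. With scan day as a further term none of the 9 passed in limma (at an unadjusted p below 0.05, 2 were higher and 1 was lower), and over the whole array 3 probes did. With rat as a block, that fit takes the tissue difference from the pairs of animals 4 and 9 alone, so that its direction adds nothing to their values. No slide held both tissues, so slide and tissue cannot be told apart within a slide.

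The spread among animals was wider in OSCC than in normal tissue for 8 of the 9 genes. The SD over the 11 OSCC arrays was 3.93 times that over the normal arrays for Ccng1, 2.86 times for Mdm2 and 2.44 times for Gadd45a, and 0.733 times for Phlda3, whose normal tissue of animal 24 was high. The median ratio of the 9 was 1.95, against 1.64 for all probes. After quantile normalization the medians were 2.12 and 1.40. This ratio is a description, with no test.

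Whether the members moved with Mdm2 was asked over the pairs. The difference of Mdm2 in animal 24 lay far from the others, so the relation was taken over the other 10 pairs. It was strongest with Ccng1 (Pearson's r = 0.68, permutation p = 0.0298, adjusted p = 0.239 over 8 relations; Spearman's rho = 0.62, permutation p = 0.06, adjusted p = 0.48), and r was 0.57 without the 2 pairs farthest from the median of Mdm2. Without animals 21, 22 and 24 the r with Ccng1 was 0.34, and that with Sesn1 turned from 0.40 to -0.52. By the second Mdm2 probe, over 11 pairs, the highest r was that with Sesn1 (0.60). No relation passed after adjustment, and 1 of 8 had an unadjusted p below 0.05. The other 7 values of r lay between -0.41 (Bbc3) and 0.57 (Phlda3).

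The genes whose differences over the 11 pairs were most like those of each member were found among 13593 probes well above background on at least 11 arrays. For Ccng1 they were Unc45b, a myosin chaperone of muscle, and Hspb2, a small heat shock protein of muscle (r = 0.993 for both). For Sesn1 they were Mospd1 (r = 0.985) and Psme4 (r = 0.980), and for Bbc3 the nucleotide receptor P2ry6 (r = 0.985) and the leukocyte receptor Cd300a (r = 0.985). Bax was nearest to Ptrh2 (r = 0.979) and Nradd (r = 0.976), Mdm2 to Dnajb6 and LOC683504 (r = 0.951 for both), and Tp53inp1 to Cnot6 (r = 0.925) and Xpo5 (r = 0.921). Cdkn1a had Tas1r1 (r = 0.897) and Gripap1 (r = 0.877), Gadd45a had Tinagl1 (r = 0.878) and Gja4 (r = 0.877), and Phlda3 had Rnf222 (r = 0.885) and Chaf1a (r = 0.884) nearest to it. These are the highest of many values and carry no test, and genes of 1 array share its scaling.

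Beyond the 9, 61 regulators and targets of p53 were listed from general knowledge and 56 were found, each with its brightest probe. Of these 20 rose, 7 fell and 29 did not pass (48.2% passed, against 45.0% of symbols). By at least 2-fold 11 rose and 1 fell, against 7.48% and 7.24% of symbols. With arrays scaled to their median 14 rose and 13 fell (56.8% of all probes passed), and after normexp 11 rose and 1 fell (11.9% passed). With only probes well above background on at least 11 arrays 14 rose and 6 fell (54.1% of such probes passed). The median difference of the 56 was 0.15. By their brightest probes Zmat3, Aen, Polk, Ddit4 and Ccng2 did not pass, but the second probe of each rose. With the mean of all probes of a symbol 22 genes rose and 6 fell. The groups of levels were fully separated for 2 of the 56, against 1.66% of symbols. These were Fas and Btg2, the latter named after its values were seen. The separation of Fas was minimal, with a highest normal level of -3.38997 and a lowest OSCC level of -3.3896.

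Of 14 apoptotic targets 8 rose and 0 fell, with a median difference of 0.45, and the 6 others did not pass; of all symbols 17.0% rose and 27.9% fell, shares that apply to each role below. The macrophage (7 of 9), T cell (5 of 7) and neutrophil (6 of 8) markers that rose in the same tissues stand beside this count, and their part in it was not tested. Dram1 (Dram on the array), a membrane protein of lysosomes in p53-dependent autophagy, rose from a mean of -3.27 to -1.28, by 1.99 (SE 0.31, adjusted p = 0.000702). Fas, the death receptor, rose from -4.30 to -2.41, by 1.90 (SE 0.29, adjusted p = 0.000704), in every pair. Only 3 normal and 10 OSCC arrays detected it above background, so that the size of its rise is uncertain, and a second Fas probe did not pass. Pmaip1, which encodes the BH3-only protein Noxa, rose by 1.33 (adjusted p = 0.00154) but was detected over background on 1 array of normal tissue and 9 of OSCC. Its mean in normal tissue, -4.31, was thus near background, and the size of its rise is uncertain. Apaf1, the scaffold of the apoptosome, rose by 1.19 (adjusted p = 0.00188) by its brightest probe and passed as a rise by its second one too. Bid, a BH3-only protein cut by caspase-8, rose by 1.19 (adjusted p = 0.00517). Eda2r, a receptor of ectodysplasin, rose by 1.05 (adjusted p = 0.0246) but was well above background on 1 OSCC array and on no normal array, so no fold is given. Tnfrsf10b, also counted among the 8, was well above background on 2 OSCC arrays and on no normal array.

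Of 8 growth-arrest genes found 4 rose and 0 fell, and the median difference was 0.74. Cd82, a tetraspanin and suppressor of metastasis, rose from -0.26 to 1.24, 2.83-fold (adjusted p = 0.000651), in 11 of 11 pairs, and the polo-like kinase Plk2 rose by 1.22 (SE 0.26, adjusted p = 0.00378) in 10. Among 15 regulators of p53 5 rose and 3 fell, with a median of 0.04. Atr, counted as a fall, was at background throughout both tissues, so that no change in its level can be read. Atm, counted as a rise, was at background in all normal tissue and was measured on 5 OSCC arrays. The largest change among the regulators was that of Cdkn2a, the locus of p16 and of Arf, the protein that holds Mdm2 away from p53. Its level was -2.34 to 0.09 in normal tissue (median -1.38) and -2.58 to 2.87 in OSCC (median 1.95), a rise of 2.49 (SE 0.62, adjusted p = 0.0086) in 10 of 11 pairs. The array symbol does not say which product the Cdkn2a probe reads.

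By the brightest probes, of 6 DNA repair genes found 0 rose, 1 fell and 5 did not pass, with a median of -0.09. The second probe of Polk, counted among the 5, passed as a rise. The 12 metabolic, stress and secreted targets divided evenly, 3 up and 3 down. Thbs1, the matrix protein thrombospondin 1, was at background in all normal tissue. OSCC, where 9 arrays measured it, exceeded normal tissue at least 2.22-fold (adjusted p = 0.000178). Gadd45g, a relative of Gadd45a, fell by 1.27 on the log2 scale (SE 0.22, adjusted p = 0.00133) in 11 of 11 pairs, from a level of 3.20 to 4.09 (median 3.54) to 1.52 to 3.97 (median 1.91). Of 8 fibroblast markers 6 rose in the same tissues (summed level 55.8 to 96.6 in normal tissue and 50.6 to 447.4 in OSCC), and their part in these changes was not tested.

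**Figure D4:**
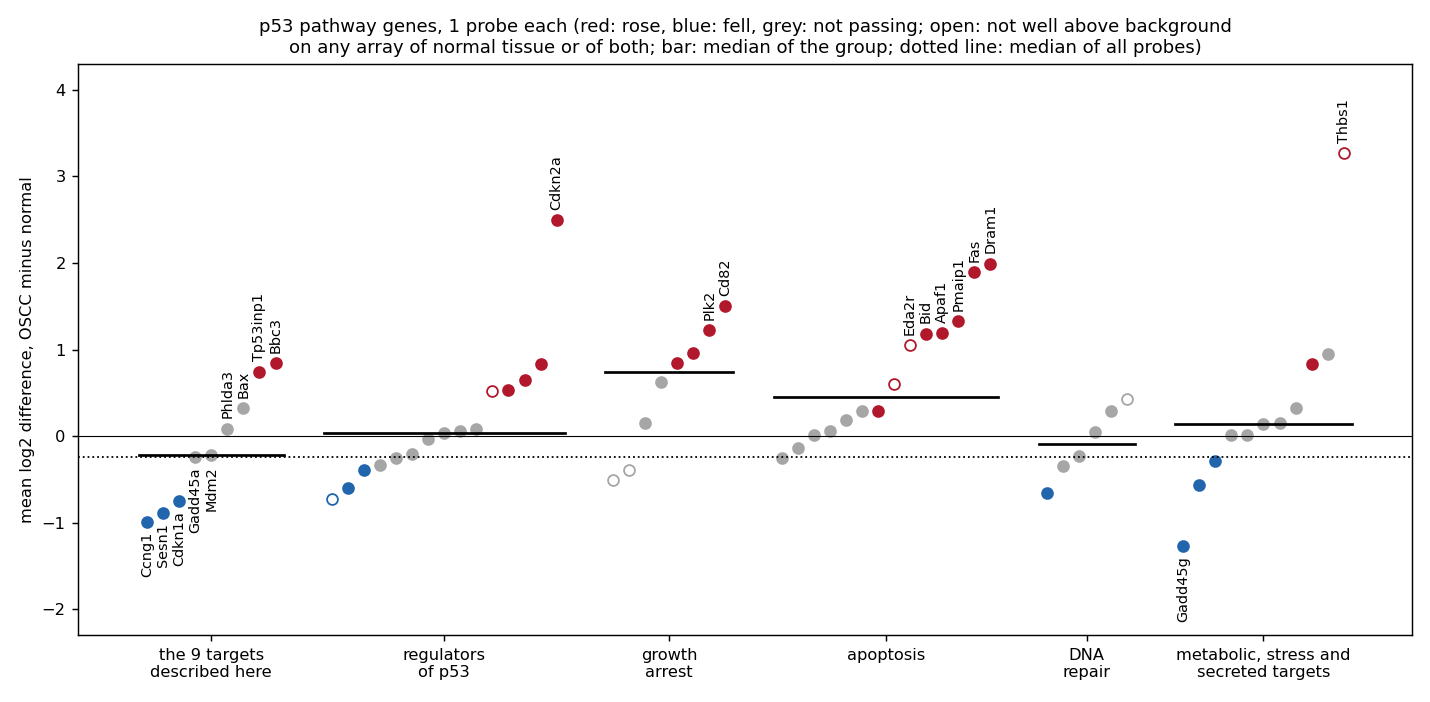
Mean difference of OSCC minus normal tissue (log2, 11 pairs) for the 9 genes and for 54 of the 56 other genes of the p53 pathway, grouped by role, with a bar at the median of all genes found in a group; red rose, blue fell, grey did not pass, open circles were at background in all arrays of normal tissue or of both tissues. Of the apoptosis and growth-arrest genes 8 and 4 are red and none is blue, whereas the 9 targets lie between -0.99 and 0.84.

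Across the settings tried, the differences kept their sign for 6 of the 9 genes. Bbc3 lay between 0.64 and 1.10 and Tp53inp1 between 0.32 and 0.97 under every setting tried. The brightest Cdkn1a probe lay between -0.95 and -0.59, the mean of both probes gave -0.14, and the second probe read alone was positive. Ccng1 lay between -1.59 and -0.83 and Sesn1 between -1.47 and -0.61.

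**Figure D5:**
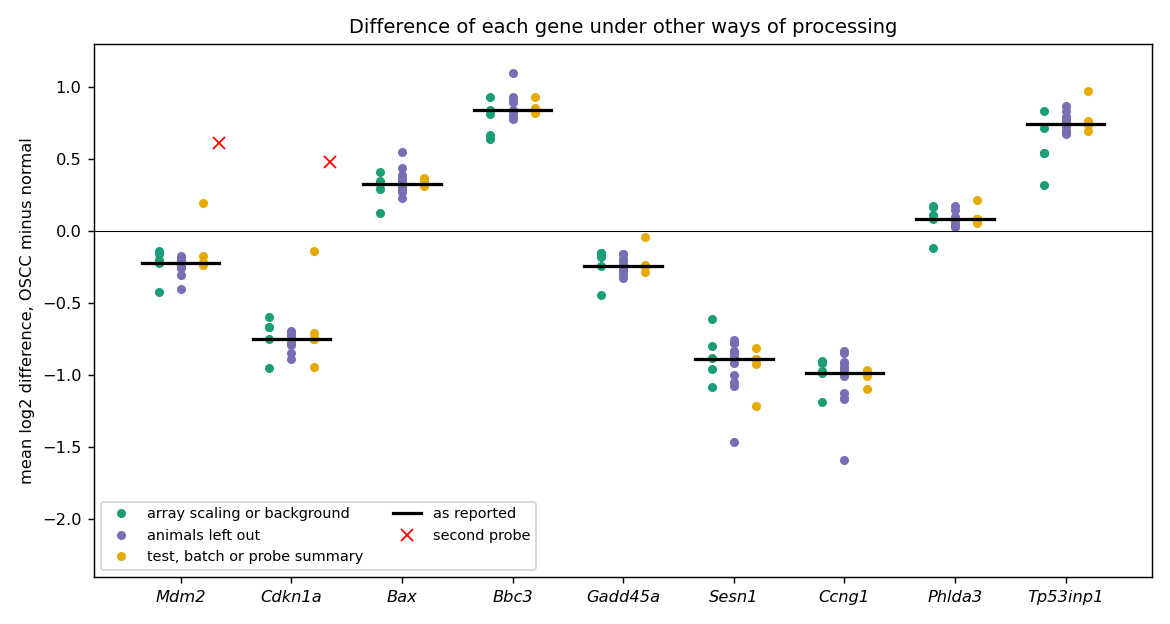
Mean difference of OSCC minus normal tissue (log2) of each gene as reported (black bar), under other array scalings and background corrections (green), with animals left out (violet), with other tests, batch terms or the mean of a gene's probes (yellow), and by the second probe (red cross). The signs of Bbc3, Tp53inp1, Bax, Sesn1, Ccng1 and Gadd45a were the same throughout, and those of Mdm2, Cdkn1a and Phlda3 were not.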

How the data were processed

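RNA from 11 pairs of OSCC and normal tongue was measured on one-colour Agilent Rat GE 4x44K v3 arrays. The deposited intensity values came from Feature Extraction 9.5.3.1 (file headers), by which the authors subtracted background from each spot and removed spatial trends; they were linear, with no scaling between arrays. A second file deposited by the authors is a table of ratio values, the signal over the 75th percentile of its array, which was used as an alternative (of values at or above 0.5, 99.97% lay within 2% of that ratio). Here control spots and 9196 outlier spots (0.975%) were left out, log2 signals of a probe's spots were averaged and each array's 75th percentile was subtracted. Dim probes were kept.

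Limma 3.58.1 in R 4.3.3 was fitted over 30367 probes with rat and tissue as terms, since both tissues of a pair came from 1 animal; the deviations of a rat's tissues correlated at -0.21 to 0.24 across probes (median -0.02). Agreement among probes was tested by exact sign flips, and relations by 100000 permutations, within the larger cluster where a gap exceeded 30% of the range. The genes named are the 9 targets with every probe, pathway genes that passed with at least 2-fold, and the 2 nearest genes of each target; some named by this rule are not reported here, though the counts include them. The members, pathway and marker lists were chosen with earlier results of these data known. The alternatives were other scalings, background corrections, tests, batch terms, probes and left-out animals; reading the second probe of Mdm2 and Cdkn1a was added after the data were seen. The 10 marker lists also included gland (8 of 9 found rose, 1 fell) and neutrophil (6 of 8 rose, 1 fell). Further ones were B and plasma cell (4 of 6 rose), endothelium (3 of 8 fell) and proliferation (0 of 8 passed). Pip of the gland list and Mpo and Ngp of the neutrophil list were at background on all arrays. The script was also tested on simulated data. Precision is limited by the number of arrays and, for dim probes, by signal over background.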

Additional observations from a re-analysis of the deposited data

How the results depend on the processing

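The count of 2 members that rose and 3 that fell became 1 and 1 after normexp background correction, 0 and 0 with 2-fold as well (in limma and in the methods' t-test at an unadjusted p) and 0 and 0 with scan day as a term (limma; 2 and 1 at an unadjusted p below 0.05). In the pairs scanned on different days alone, and with slide as a random block, 1 member fell (Cdkn1a). With the second probe of Mdm2 (0.61) and Cdkn1a (0.48), both of opposite sign to the brightest, 4 rose. Leaving out 1 animal gave 2 to 3 that rose and 1 to 4 that fell. Of the pathway genes, 20 rose and 7 fell; the number that fell was 13 after median scaling, 4 with the percentile over detected probes, 2 in the pairs scanned on different days and 3 with slide as a block. Normexp, and 2-fold as well, gave 11 and 1, and scan day 0 and 0 (10 and 4 at an unadjusted p). Leaving out 1 animal gave 15 to 20 and 4 to 7. The share of all probes that passed shifted too, from 44.0% to 11.9% with normexp, 13.8% with 2-fold as well and 56.8% after median scaling. It was 36.1% with the percentile over detected probes, 22.1% in the pairs scanned on different days and 23.6% with slide as a block. With 1 animal left out it was 28.3% to 53.9%. Without the replicate block for rat, 2 members rose and 3 fell, and 20 and 6 pathway genes, so the pairing changed no call of a member. The causes of these shifts were not tested. Sesn1 did not pass with the methods' adjusted t-test (adjusted p = 0.0567) or with the percentile over detected probes (adjusted p = 0.0536). No relation with Mdm2 passed under any alternative. Dim probes such as Tp53inp1 are limited by signal over background.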
